A study of Mus musculus with 4 samples.

Results

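The 39 genes described here encode the machinery that copies DNA and the enzymes that supply its building blocks: the MCM helicase, the origin recognition and loading proteins, GINS and the helicase activators, the DNA polymerases and primase, the clamp and its loader, the single-strand binding protein RPA, 5 enzymes of deoxynucleotide synthesis and the maintenance methylation factor Uhrf1. They were chosen by name, with earlier results of these data known, and are 39 of the 55487 genes in the count table. Of the 13496 genes with enough counts to be tested, 38 are members, and Fen1 is the member left out. Poly(A) RNA-seq libraries came from the myeloid cells of perfused, digested mouse livers, 2 for each of 2 genotypes. All animals carried LysM-Cre, in which the lysozyme 2 locus drives Cre recombinase in macrophages, monocytes and granulocytes. The wt/wt group (LysM-Cre IL10R wt/wt, n = 2) had an unmodified interleukin-10 receptor gene and the fl/fl group (LysM-Cre IL10R fl/fl, n = 2) a floxed one, whose loxP-flanked DNA Cre removes. Cells were sorted as positive for CD45 and CD11b and negative for CD3 and CD11c, so monocytes, macrophages and granulocytes can all be among them. The labels give no age, sex or strain, no treatment or tumour, and do not say whether the libraries of a genotype came from separate animals, so the p-values measure the spread between these libraries.

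Before a cell divides, the origin recognition complex, Cdc6 and Cdt1 load the ring-shaped MCM helicase onto DNA. Cdc45 and GINS then join the ring and turn it into an active helicase, polymerases copy the opened strands, and the sliding clamp PCNA, placed by the RFC loader, holds the polymerases on the DNA. Many of these genes are transcribed as cells enter S phase, under transcription factors of the E2F family. In the myeloid lineage division is a property of marrow precursors and of some tissue macrophages, whereas mature neutrophils no longer divide.

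Values are given throughout in the order wt/wt 1, wt/wt 2, fl/fl 1, fl/fl 2. Total counts per library ran from 17154042 to 26441014. Il10ra, which encodes a chain of the interleukin-10 receptor, was at 1111 and 993 CPM (counts scaled to library size and composition) in the wt/wt libraries against 69.3 and 14.8 CPM in fl/fl 1 and 2 (log2 fold change −4.64, SE 0.68, adjusted p = 0.0193 in edgeR's quasi-likelihood test). Libraries of a genotype differed by more than sampling noise, and the second principal component, with 23.9% of the variance, separated fl/fl 1 from fl/fl 2. Xist, which coats the inactive X chromosome, was counted 4298 times in fl/fl 2 and never in the remaining libraries. By this gene the fl/fl libraries differed in sex and cannot come from the same animal, whereas both wt/wt libraries lacked Xist. The part of sex in the members' levels was not tested. The lists for granulocyte precursors and mature neutrophils moved with the members, and their values stand beside the members' further below.

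Promoter sequences show what the members share outside their RNA levels. Windows of 300 bases, from 250 before to 50 after the annotated start, were taken from RefSeq (GRCm38.p6) and were given for 32 of the 39 members. They were searched on both strands for 4 spellings of the E2F motif (TTTCCCGC, TTTCGCGC, TTTGCCGC and TTTGGCGC). The motif stood in 14 of the 32 members, or 43.8%, against 2.60% of 27025 genes with a window of the same length. The CCAAT box (CCAAT) was in 20 of 32 members and in 41.1% of all genes. The cell cycle homology element (TTTGAA), a mark of mitotic promoters, was in 5 of 32 members, or 15.6%, against 20.2% of all genes. A match is a run of letters and not a measured site. The 10 matches or joined pairs of matches that lie before the start, in 9 members, are shown with 8 bases on each side (fewer where the start is nearer), 5′ to 3′ along the gene, with the matched letters in capitals.
Mcm5 (chr8:75109348-75109375, plus strand): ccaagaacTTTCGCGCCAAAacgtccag
Mcm6 (chr1:128359796-128359823, minus strand): cgtatgctTTTGGCGCGAAAagtgcgtg
Mcm6 (chr1:128359737-128359760, minus strand): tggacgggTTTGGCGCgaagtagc
Mcm7 (chr5:138172033-138172056, minus strand): ttcgaaccGCGGGAAAcagggtgt
Orc1 (chr4:108579419-108579442, plus strand): ggttagtgGCGCGAAAagttttct
Cdc6 (chr11:98908005-98908028, plus strand): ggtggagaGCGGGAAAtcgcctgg
Gins3 (chr8:95633510-95633533, plus strand): agtgcggcGCGGGAAAgcgagttt
Pola1 (chrX:93632278-93632301, minus strand): atcacaggGCGCCAAAtgcactcc
Rfc3 (chr5:151651209-151651226, minus strand): tcgcacgcTTTCGCGCtc
Uhrf1 (chr17:56304120-56304143, plus strand): gagtcgggTTTCGCGCgcccaggc

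In Mcm5 and in the upstream pair of Mcm6 a match on each strand overlapped, which gives a run of 12 capitals. The motif was in 4 of 5 MCM windows, in 3 of 4 of the origin and loading genes, in 3 of 6 of the polymerase genes and in 1 of 3 each of the RFC and clamp genes. None of the 5 nucleotide synthesis genes held it, and neither did the 2 helicase activators or the 2 RPA genes. Among the 5 members whose RNA rose in fl/fl, 1 had the motif (Uhrf1), against 13 of the 26 other tested members with a window, so within the members the motif was no more frequent among those that rose. No test was made of this split. Uhrf1 has 2 windows, of 2 annotated starts. Its match is in the window that begins at base 56304063, inside the gene, which starts at base 56303321. The window around the gene's own start, from base 56303087, has no match.

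**Figure D1:**
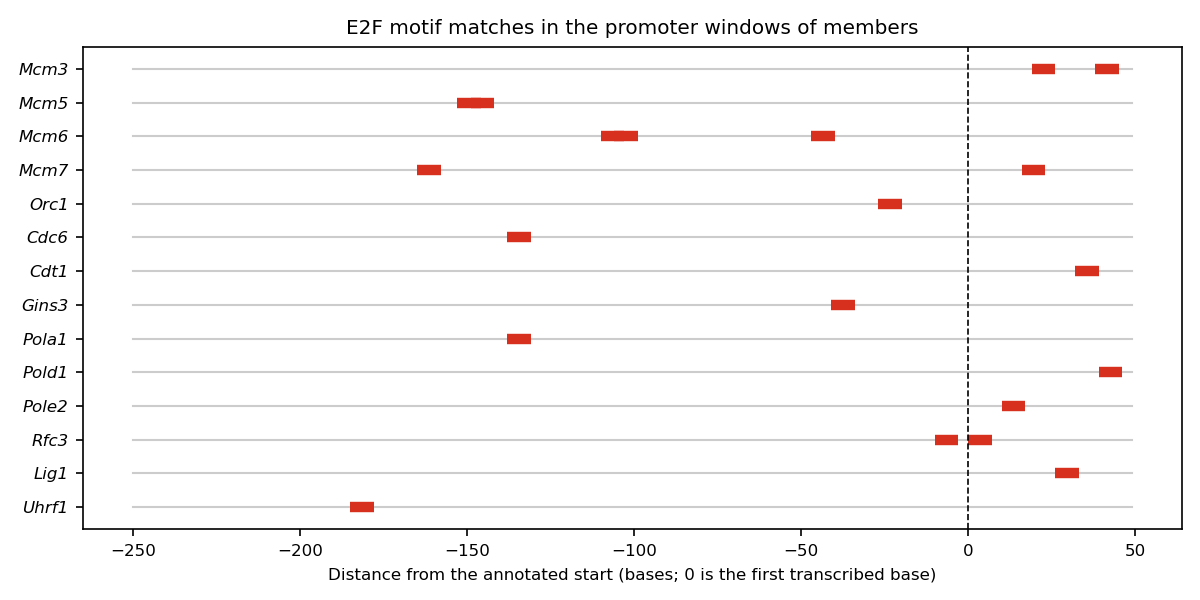
Positions of E2F motif matches (red bars) in the 14 members that have one, in bases from the annotated start (dashed line). Grey lines are the windows searched, from 250 bases before to 50 after the start, and 5 of the 14 members have matches only after the start.

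The 250 bases before the start are shown whole for 5 members: the MCM, GINS and nucleotide synthesis gene with the smallest p of its group, and the 2 members with the fold changes nearest to 0, Pcna and Cdt1. Capitals again mark the E2F letters, so the windows without capitals hold no match before the start.
Mcm5 (chr8:75109259-75109508, plus strand): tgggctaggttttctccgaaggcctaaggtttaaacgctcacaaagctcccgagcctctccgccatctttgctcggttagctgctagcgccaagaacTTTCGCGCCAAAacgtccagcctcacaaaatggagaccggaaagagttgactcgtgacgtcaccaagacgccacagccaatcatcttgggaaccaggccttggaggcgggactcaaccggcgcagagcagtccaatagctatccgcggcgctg
Gins3 (chr8:95633309-95633558, plus strand): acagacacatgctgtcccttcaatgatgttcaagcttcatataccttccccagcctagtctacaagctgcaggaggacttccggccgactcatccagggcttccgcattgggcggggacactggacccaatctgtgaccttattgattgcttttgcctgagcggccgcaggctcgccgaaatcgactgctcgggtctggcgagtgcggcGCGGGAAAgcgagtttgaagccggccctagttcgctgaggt
Rrm2 (chr12:24708004-24708253, plus strand): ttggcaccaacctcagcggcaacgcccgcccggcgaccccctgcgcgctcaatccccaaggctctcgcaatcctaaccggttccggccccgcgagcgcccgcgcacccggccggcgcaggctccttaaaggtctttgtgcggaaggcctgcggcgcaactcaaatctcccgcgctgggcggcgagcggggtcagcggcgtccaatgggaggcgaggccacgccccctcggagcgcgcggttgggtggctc
Pcna (chr2:132253181-132253430, minus strand): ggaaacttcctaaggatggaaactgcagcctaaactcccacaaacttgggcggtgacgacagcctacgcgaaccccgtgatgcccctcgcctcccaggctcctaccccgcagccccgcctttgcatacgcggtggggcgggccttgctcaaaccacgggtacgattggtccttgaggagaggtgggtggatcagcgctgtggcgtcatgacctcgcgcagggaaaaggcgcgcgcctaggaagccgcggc
Cdt1 (chr8:122567765-122568014, plus strand): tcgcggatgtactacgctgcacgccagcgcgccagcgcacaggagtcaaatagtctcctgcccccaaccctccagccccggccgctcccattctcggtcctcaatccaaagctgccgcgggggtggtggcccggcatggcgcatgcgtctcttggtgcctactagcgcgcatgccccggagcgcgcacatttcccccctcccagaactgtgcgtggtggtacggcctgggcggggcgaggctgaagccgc

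The window of Rrm2, the member with the largest fold change, has no match, and neither do the bases shown of Pcna and Cdt1. Cdt1 has 1 match after its start.

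The genotypes were then compared across all members. Rrm2, Uhrf1, Tyms, Mcm10 and Dut rose in fl/fl, by log2 fold changes from 2.35 to 3.81 with adjusted p from 0.0196 to 0.0410 (edgeR, Benjamini-Hochberg over all 13496 tested genes). These 5 are 13.2% of the 38 tested members, where 2.69% of all tested genes were called higher. No member was called lower by edgeR, DESeq2 or limma-voom. EdgeR called 3.16% of all tested genes lower, and 0 of 38 members is close to so low a share. The 24 members with an unadjusted p under 0.05 were all higher in fl/fl. The share of all tested genes that were lower at such a p was not counted. Fitted changes were positive in 37 of 38 members, with Pold2 as the exception, and their median was 0.99 against 0.02 over all tested genes. Of these signs, that of Pcna turned negative with upper quartile scaling, and the other scalings left all of them as they were. In 27 members both fl/fl libraries lay above both wt/wt libraries, a share of 71.1%, against 28.1% of all tested genes. Orc1 and Pole are among these 27, among the 24 and among the positive signs. Both passed the count filter only through their fl/fl values, so these counts include 2 genes whose direction the filter favoured. The remaining 33 tested members did not pass the threshold, 19 of them at an unadjusted p under 0.05. Over all tested genes 22.5% were at such a p, in either direction.

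How many members pass depends on the libraries and the tool. Without wt/wt 1 or without wt/wt 2 no member was called by edgeR, with 13 members at an unadjusted p under 0.05 in each case, where 11.1% and 16.4% of all tested genes were. DESeq2 still called members in both cases, Uhrf1, Tyms, Mcm10 and Dut among them, but Rrm2 in neither. Without fl/fl 1 the called members were Dut, Mcm5, Rrm2 and Uhrf1, 4 in all, where 2.38% of all tested genes were called higher. Without fl/fl 2 the number was 24, where 5.50% of all tested genes were. In the same edgeR fits without wt/wt 1 or wt/wt 2 the number called over all tested genes was 0, so every edgeR call named here, that of Il10ra among them, needs both wt/wt libraries. On all 4 libraries DESeq2 called 16 members, where it called 5.81% of all tested genes higher. With limma-voom the number was 2, Dut and Rrm2, where 1.89% of all tested genes were called higher.

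The difference was largest in 1 library. For 37 of 38 members the level in fl/fl 1 exceeded that in fl/fl 2, with a median log2 ratio of 1.16, whereas the same median over all tested genes was 0.00. Rfc2 was the exception. Fl/fl 1 lay above both wt/wt libraries in 36 members and fl/fl 2 in 27. Without fl/fl 1 the members' median fold change was 0.45, and without fl/fl 2 it was 1.28. Summed over the members, the level was 665 and 572 CPM in the wt/wt libraries against 1522 and 790 CPM in the fl/fl libraries.

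**Figure D2:**
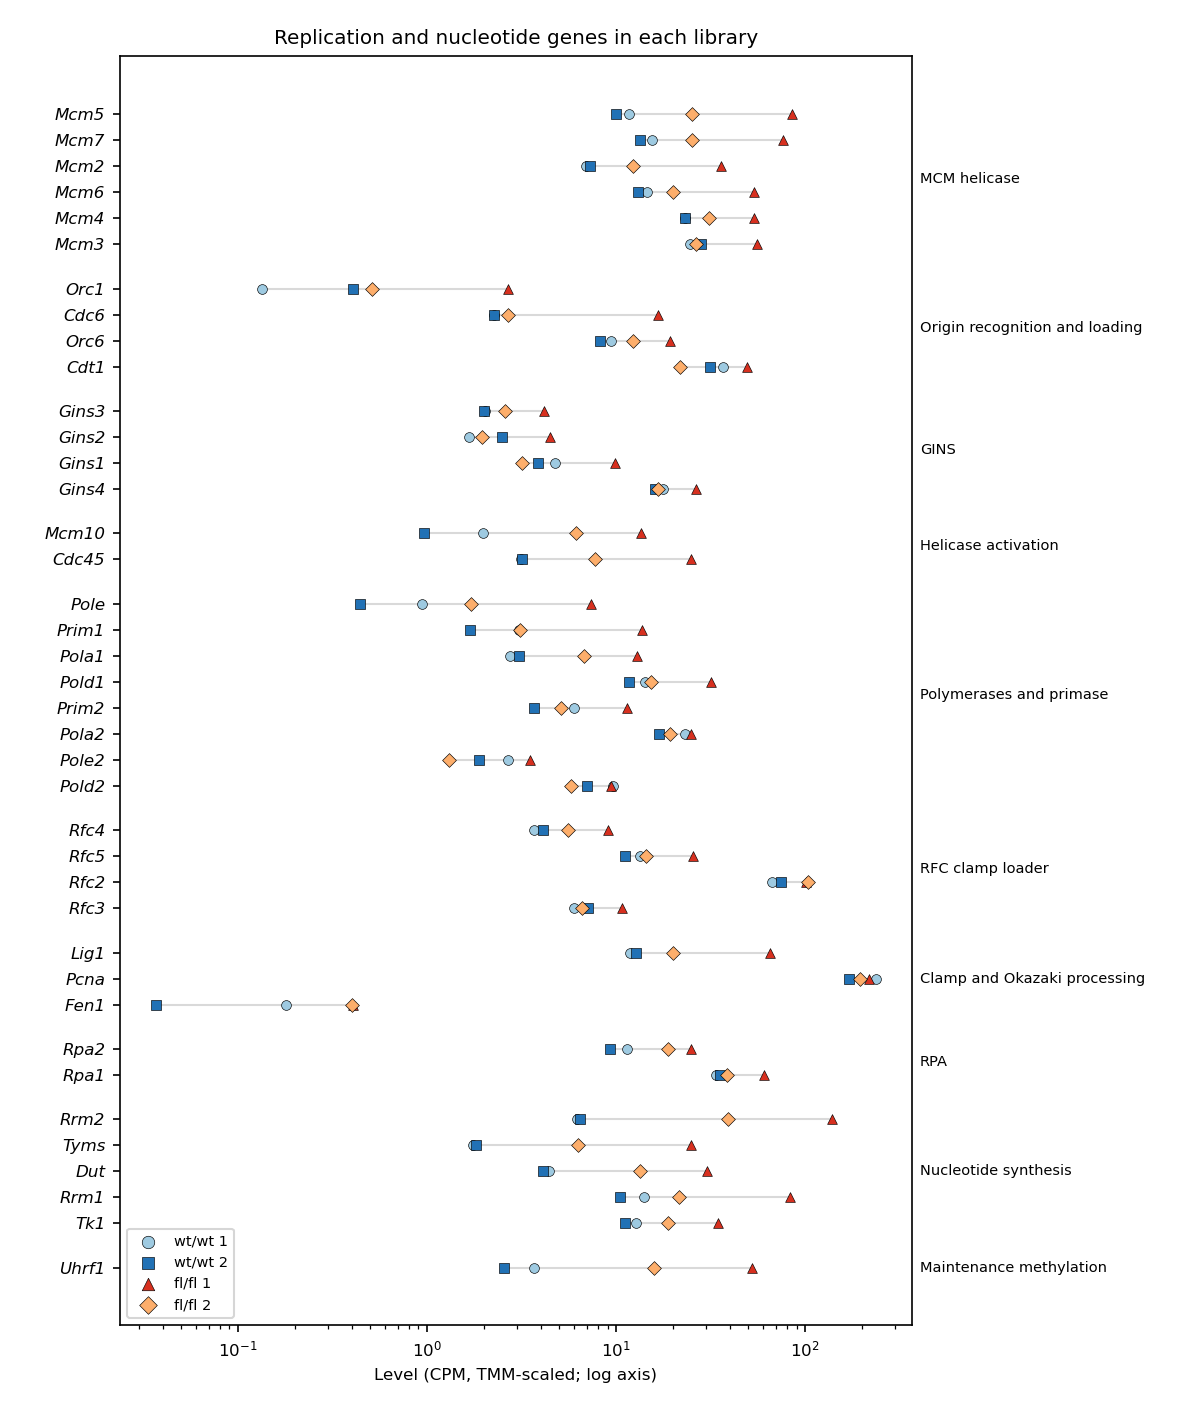
Level of each member in each of the 4 libraries (CPM on a log axis), grouped by complex and ordered within it by fold change. Fl/fl 1 (red triangles) lies above both wt/wt libraries (blue) for 36 of the tested members, and fl/fl 2 (orange diamonds) lies among or below them for 11 of the 38 tested members.

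The MCM helicase is a ring of Mcm2 to Mcm7 that unwinds DNA ahead of the fork. None of the 6 subunits passed the threshold in edgeR, although 5 were at an unadjusted p under 0.05 and 5 were above both wt/wt libraries in both fl/fl libraries. DESeq2 called 4 of them (Mcm2, Mcm5, Mcm6 and Mcm7) and limma-voom none. Mcm5 was nearest to the threshold. It was at 11.6 and 9.98 CPM in the wt/wt libraries against 85.6 and 25.1 CPM in the fl/fl libraries, so the groups did not overlap (log2 fold change 2.36, SE 0.53, adjusted p = 0.0520). Values in parentheses after a pair of levels are, from here on, the log2 fold change, its SE and edgeR's adjusted p. The adjusted p of Mcm5 ran from 9.22e-20 to 0.327 over the alternative settings.

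Mcm7 was at 15.5 and 13.3 CPM in wt/wt against 75.8 and 25.1 CPM in fl/fl (1.80, SE 0.47, adjusted p = 0.0790). Mcm2 was at 6.92 and 7.29 CPM in wt/wt against 35.6 and 12.2 CPM in fl/fl (1.75, SE 0.48, adjusted p = 0.0860). For both genes fl/fl 1 stood far above the other libraries and fl/fl 2 less far above wt/wt. Mcm6 went from 14.6 and 13.004 CPM in wt/wt to 53.3 and 20.0 CPM in fl/fl (1.41, SE 0.43), and Mcm4 from 23.1 CPM in each wt/wt library to 53.3 and 31.0 CPM (0.87, SE 0.27), with adjusted p of 0.111 and 0.118. Mcm3 was the subunit that overlapped. It was at 24.7 and 28.0 CPM in wt/wt against 55.9 and 26.3 CPM in fl/fl, with a fold change of 0.64 (SE 0.34) that became −0.04 without fl/fl 1. The median of the 6 subunits was 1.58, and 0.62 without fl/fl 1.

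The proportions of the subunits were compared within each library. Counts of Mcm5 were 0.471 and 0.357 times those of Mcm3 in the wt/wt libraries against 1.53 and 0.952 times in fl/fl 1 and 2. Per kilobase of the principal transcript, the most abundant subunit in wt/wt was Mcm3, at 8.15 and 9.23 CPM per kilobase, and the least abundant Mcm2, at 2.05 and 2.16. The highest subunit was 3.97 and 4.26 times the lowest in wt/wt, against 2.42 and 2.40 times in fl/fl. Mcm2 was the lowest in every library, also when levels were set against the length of all exons, while the subunit ranked highest in fl/fl depended on which length was used. The ring holds equal numbers of the 6 proteins, and these are RNA levels only.

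**Figure D3:**
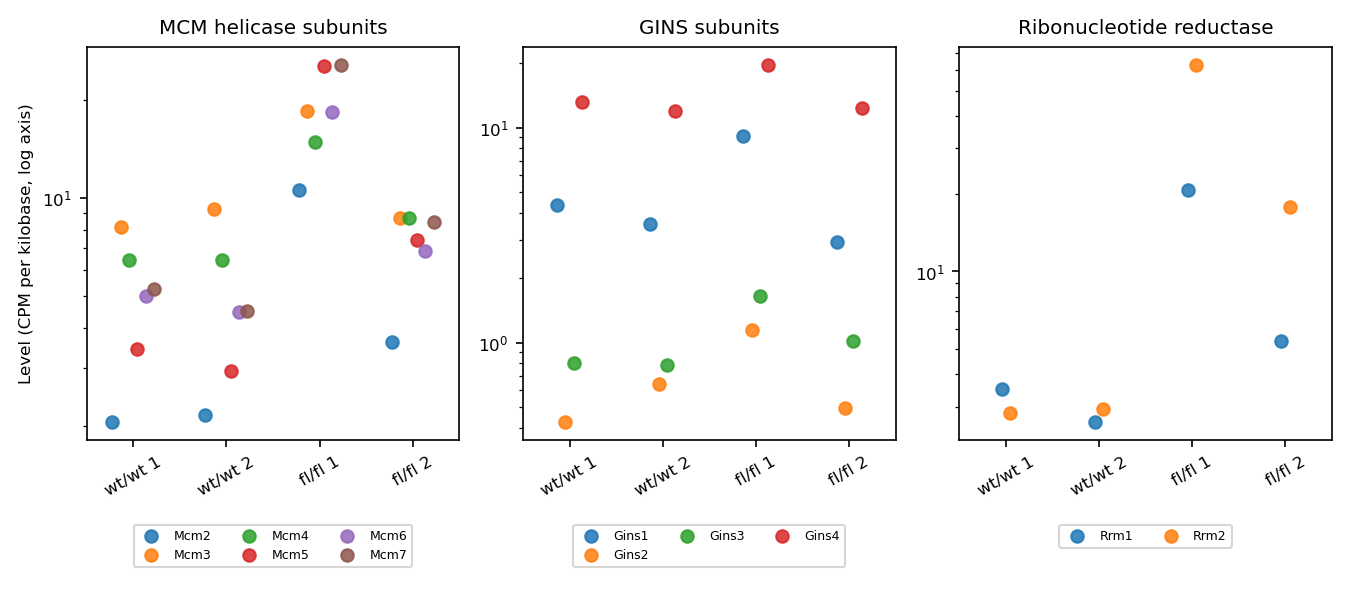
Level per kilobase of the principal transcript (log axis) of the 6 MCM subunits, the 4 GINS subunits and the 2 ribonucleotide reductase subunits in each library. Mcm2 is lowest and Gins4 highest of its complex in all 4 libraries, and Rrm2 lies clearly above Rrm1 in fl/fl 1 and fl/fl 2.

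Loading of the ring needs the origin recognition complex, here with Orc1 and Orc6, and the loaders Cdc6 and Cdt1. None of the 4 genes passed in edgeR, 3 were at an unadjusted p under 0.05, DESeq2 called Cdc6 and limma-voom none. Cdc6, the ATPase that recruits the helicase, was at 2.25 CPM in both wt/wt libraries against 16.7 and 2.68 CPM in fl/fl 1 and 2 (2.10, SE 0.77, adjusted p = 0.169). Its fold change fell to 0.22 without fl/fl 1, and fl/fl 2 lay just above the wt/wt libraries. Orc1 had 3 and 11 counts in the wt/wt libraries against 46 and 9 counts in fl/fl 1 and 2. It passed the count filter only through fl/fl, and its fold change of 2.51 had an SE of 1.05 (adjusted p = 0.218). Orc6 was at 9.39 and 8.22 CPM in wt/wt against 19.2 and 12.2 CPM in fl/fl (0.84, SE 0.30, adjusted p = 0.159). Cdt1, which brings the helicase to the origin, was at 36.9 and 31.2 CPM in wt/wt against 49.4 and 21.7 CPM in fl/fl (0.06, SE 0.36, adjusted p = 0.949). Its fl/fl libraries lay on either side of the wt/wt pair, and the sign of its fold change differed between settings.

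The other origin recognition subunits and the brake on Cdt1 were read beside these. Orc2, Orc3, Orc4 and Orc5 had log2 fold changes of 0.12, −0.00, −0.20 and 0.22, all with adjusted p of at least 0.582. Gmnn, whose product geminin binds Cdt1 and blocks a further round of loading, rose from 8.18 and 6.23 CPM in wt/wt to 33.4 and 17.98 CPM in fl/fl (1.84, SE 0.35, adjusted p = 0.0327). Counts of Gmnn were 0.221 and 0.200 times those of Cdt1 in the wt/wt libraries against 0.677 and 0.827 times in fl/fl 1 and 2. The ratio did not overlap between the genotypes, although Cdt1 itself did.

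Activation of the loaded helicase takes Mcm10, Cdc45 and the 4-subunit GINS complex. Mcm10, which helps the ring to open and start, rose. It was at 1.98 and 0.958 CPM (44 and 26 counts) in the wt/wt libraries against 13.5 and 6.11 CPM (232 and 107 counts) in fl/fl 1 and 2 (2.75, SE 0.55, adjusted p = 0.0383). Both fl/fl libraries lay above both wt/wt libraries. The fold change was 2.03 without fl/fl 1, where adjusted p was 0.0666, and adjusted p ran from 8.95e-09 to 0.202 over the alternatives. Cdc45 was at 3.14 and 3.17 CPM in wt/wt against 24.8 and 7.70 CPM in fl/fl (2.36, SE 0.54, adjusted p = 0.0556). DESeq2 called both genes and limma-voom neither.

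None of the 4 GINS subunits passed in edgeR, DESeq2 or limma-voom, and 0 were at an unadjusted p under 0.05. Their fold changes ran from 0.35 (Gins4, SE 0.27) to 0.74 (Gins3, SE 0.46), with a median of 0.61 that was −0.10 without fl/fl 1. Gins3 was the subunit whose groups did not overlap, at 2.02 and 1.99 CPM in wt/wt against 4.13 and 2.57 CPM in fl/fl. Gins1 was at 4.76 and 3.87 CPM in wt/wt against 9.90 and 3.20 CPM in fl/fl (0.60, SE 0.54). Gins4 was at 17.7 and 16.1 CPM in wt/wt against 26.4 and 16.7 CPM in fl/fl. In Gins1 fl/fl 2 was below both wt/wt libraries, and in Gins4 it lay between them. Gins2 was at 1.66 and 2.51 CPM in wt/wt against 4.48 and 1.94 CPM in fl/fl (0.62, SE 0.56). Of its exonic bases, 67.3% are shared with Gse1 on the opposite strand, which fell from 64.1 and 35.4 CPM to 18.6 and 20.0 CPM (adjusted p = 0.0463, and from 1.56e-07 to 0.258 over the alternatives), and the strand setting of the counting is not given in the sources used here. Per kilobase the order was Gins4, Gins1, Gins3 and Gins2 in every library, with Gins4 from 17.01 to 30.8 times Gins2.

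None of the 8 polymerase and primase genes passed in edgeR, 4 were at an unadjusted p under 0.05, DESeq2 called Pola1 and Pole, and limma-voom none. Pola1, the catalytic subunit of polymerase alpha, was at 2.74 and 3.06 CPM in wt/wt against 12.9 and 6.73 CPM in fl/fl (1.75, SE 0.41, adjusted p = 0.0559). Its gene is on the X chromosome, on which the fl/fl libraries differed in Xist. Its accessory partner Pola2 was at 23.0 and 16.9 CPM in wt/wt against 24.8 and 19.3 CPM in fl/fl (0.14, SE 0.24), so its groups overlapped.

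Pole, the catalytic subunit of the leading-strand polymerase epsilon, had 21 and 12 counts in wt/wt against 126 and 30 counts in fl/fl (2.71, SE 0.81, adjusted p = 0.106). Fewer than 2 wt/wt libraries reached the CPM of the count filter, so Pole too passed through its fl/fl values. Pole2, its partner, was at 2.70 and 1.88 CPM in wt/wt against 3.49 and 1.31 CPM in fl/fl (0.07, SE 0.59). Pold1, the catalytic subunit of polymerase delta, was at 14.2 and 11.6 CPM in wt/wt against 31.7 and 15.3 CPM in fl/fl (0.86, SE 0.36, adjusted p = 0.217), and Pold2 was at 9.57 and 7.04 CPM in wt/wt against 9.43 and 5.76 CPM in fl/fl (−0.13, SE 0.35). Prim1, the primase subunit that makes the RNA primer, was at 3.05 and 1.69 CPM in wt/wt against 13.7 and 3.08 CPM in fl/fl (1.83, SE 0.71), and 0.34 without fl/fl 1. Prim2, the large primase subunit, was at 5.97 and 3.68 CPM in wt/wt against 11.4 and 5.14 CPM in fl/fl (0.77, SE 0.47). In each of the 4 pairs the catalytic gene had the larger fold change, a description of the fitted values whose differences within pairs were not tested.

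Pcna, the clamp, had the highest level per kilobase of all members and was not called under any setting. It was at 237 and 170 CPM in the wt/wt libraries against 217 and 194 CPM in the fl/fl libraries, inside the wt/wt range (0.02, SE 0.20, adjusted p = 0.974). It made up 35.6% and 29.6% of the members' summed CPM in wt/wt, but 14.3% and 24.6% of it in fl/fl. The 4 small subunits of the loader did not pass in edgeR, DESeq2 or limma-voom, and 2 of them were at an unadjusted p under 0.05. Rfc2 was the steadiest of these, at 66.5 and 74.5 CPM in wt/wt against 101 and 104 CPM in fl/fl (0.54, SE 0.15, adjusted p = 0.0975), with fold changes from 0.41 to 0.62 when any 1 library was left out. Rfc4 (0.90, SE 0.37) was at 3.68 and 4.09 CPM in wt/wt against 9.03 and 5.54 CPM in fl/fl, and Rfc5 (0.71, SE 0.32) at 13.3 and 11.1 CPM in wt/wt against 25.5 and 14.4 CPM in fl/fl. Neither gene overlapped between the groups. Rfc3 did, at 6.02 and 7.11 CPM in wt/wt against 10.8 and 6.56 CPM in fl/fl (0.40, SE 0.34). Exons on the opposite strand cover 15.1% of the exonic bases of Rfc2 (Lat2) and 12.7% of those of Rfc4 (Eif4a2), so part of their reads may belong to those genes if strand was not used.

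Joining of the lagging-strand fragments needs the flap nuclease Fen1 and DNA ligase 1. Lig1 was at 11.8 and 12.7 CPM in wt/wt against 64.8 and 19.9 CPM in fl/fl (1.79, SE 0.50, adjusted p = 0.0906), without overlap, and 0.66 without fl/fl 1. DESeq2 called Lig1 and limma-voom did not. Fen1 had 4, 1, 7 and 7 counts in wt/wt 1, wt/wt 2, fl/fl 1 and fl/fl 2 and was not tested. Exons of other genes on the opposite strand cover 84.2% of its exonic bases, among them Tmem258 with 799 to 1009 counts per library, so the low count cannot be read as a low RNA level. Of the RPA subunits, which coat single-stranded DNA, Rpa2 was at 11.4 and 9.32 CPM in wt/wt against 24.7 and 18.8 CPM in fl/fl (1.08, SE 0.25, adjusted p = 0.0573), and Rpa1 at 33.6 and 35.5 CPM in wt/wt against 60.8 and 38.4 CPM in fl/fl (0.52, SE 0.24, adjusted p = 0.268). Both stayed above wt/wt in both fl/fl libraries, and DESeq2 called Rpa2.

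The 5 enzymes of deoxynucleotide synthesis had the largest median of the groups with more than 2 genes, 2.35, and 1.61 without fl/fl 1. Rrm2, Tyms and Dut rose, and all 5 were above both wt/wt libraries in both fl/fl libraries. Rrm2 (ENSMUSG00000020649, chromosome 12, 24708241 to 24714146, plus strand) encodes the small subunit of ribonucleotide reductase, which turns ribonucleotides into deoxyribonucleotides. It was at 6.20 and 6.41 CPM (138 and 174 counts) in the wt/wt libraries against 138 and 39.1 CPM (2375 and 685 counts) in fl/fl 1 and 2. The means were 6.30 ± 0.15 CPM (SD, n = 2) and 88.7 ± 70.1 CPM (SD, n = 2). The log2 fold change was 3.81 (SE 0.57, edgeR adjusted p = 0.0196), and 2.59 without fl/fl 1. Over the alternatives adjusted p ran from 1.41e-50 to 0.209.

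Rrm1, the large subunit, was at 14.1 and 10.4 CPM in wt/wt against 82.6 and 21.5 CPM in fl/fl (2.09, SE 0.57, adjusted p = 0.0869). Per kilobase of the principal transcript, Rrm2 was 0.804 and 1.12 times Rrm1 in wt/wt against 3.05 and 3.32 times in fl/fl. With the length of all exons it was 1.75 and 2.44 times Rrm1 in wt/wt against 6.66 and 7.24 times in fl/fl, so which subunit is the higher in wt/wt 1 depends on the length used. The ratio of fl/fl to wt/wt values does not depend on it. Rrm2 over Rrm1 was nearly equal in the 2 fl/fl libraries, although the level of each gene differed more than 3-fold between them. Rrm2b, the small subunit used outside S phase, was at 8.71 and 9.32 CPM in wt/wt against 7.69 and 9.02 CPM in fl/fl (−0.11, SE 0.27). Counts of Rrm2 were 0.711 and 0.688 times those of Rrm2b in wt/wt against 17.99 and 4.34 times in fl/fl.

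Tyms (ENSMUSG00000025747, chromosome 5, 30058202 to 30073617, minus strand), thymidylate synthase, was at 1.75 and 1.81 CPM in wt/wt against 25.0 and 6.28 CPM in fl/fl (3.13, SE 0.65, adjusted p = 0.0410). Dut (ENSMUSG00000027203, chromosome 2, 125247190 to 125258608, plus strand), which breaks down dUTP and keeps uracil out of DNA, was at 4.40 and 4.13 CPM in wt/wt against 30.05 and 13.4 CPM in fl/fl (2.35, SE 0.41, adjusted p = 0.0270). In both genes the wt/wt libraries were close to each other and fl/fl 1 was the highest. Without fl/fl 1 the fold change of Tyms was 1.78 with adjusted p = 0.0533, and that of Dut 1.61 with adjusted p = 0.0148. Over the alternatives adjusted p reached 0.314 for Tyms and 0.232 for Dut, in both cases without wt/wt 1. Tk1, the thymidine salvage kinase of S phase, was at 12.7 and 11.2 CPM in wt/wt against 34.5 and 18.8 CPM in fl/fl (1.16, SE 0.31, adjusted p = 0.0846). DESeq2 called Tk1 as well.

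Uhrf1 (ENSMUSG00000001228, chromosome 17, 56303321 to 56323486, plus strand) recognises half-methylated DNA behind the fork and brings the maintenance methyltransferase Dnmt1 to it. It was at 3.68 and 2.54 CPM in the wt/wt libraries against 52.0 and 15.8 CPM in the fl/fl libraries (3.45, SE 0.58, adjusted p = 0.0243), and it was called without fl/fl 1 as well (2.31, adjusted p = 0.00388). Its adjusted p ran from 1.21e-28 to 0.207 over the alternatives. Dnmt1 RNA was at 51.2 and 41.5 CPM in wt/wt against 83.9 and 51.4 CPM in fl/fl (0.55, SE 0.26, adjusted p = 0.279). Uhrf2, a relative of Uhrf1, was at 56.9 and 59.5 CPM in wt/wt against 50.6 and 56.0 CPM in fl/fl (−0.13, SE 0.16). Counts of Uhrf1 were 0.0648 and 0.0428 times those of Uhrf2 in wt/wt against 1.03 and 0.282 times in fl/fl.

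**Figure D4:**
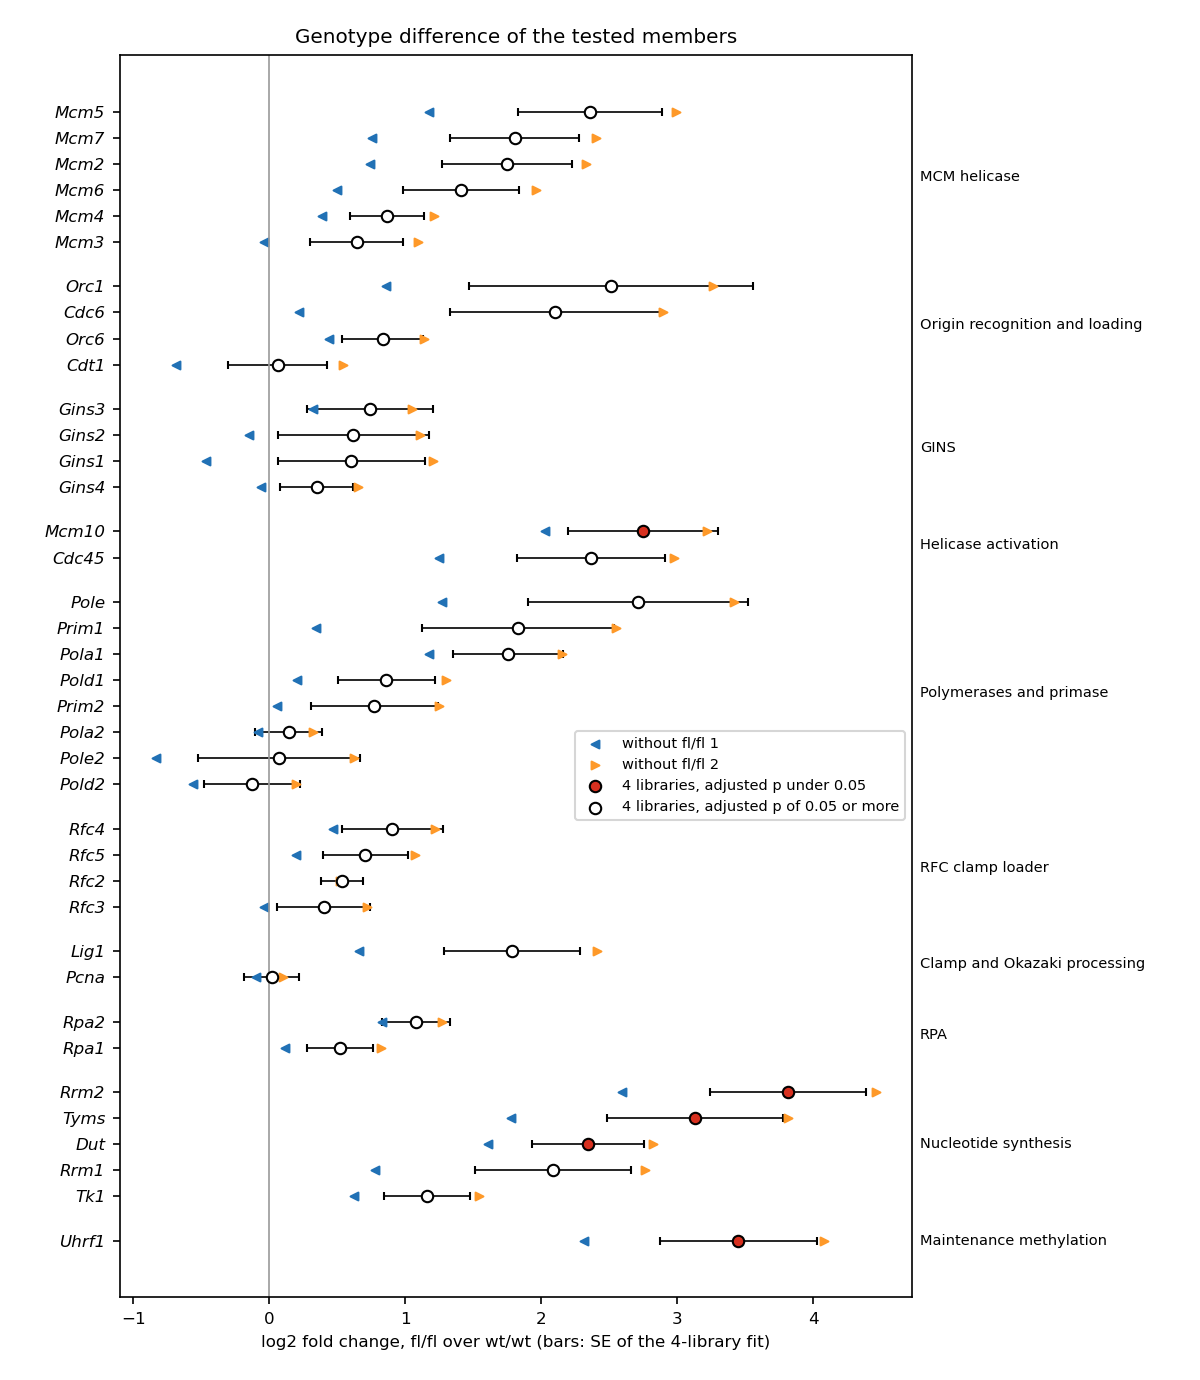
Log2 fold change of each tested member (circles, with the SE of the fit on 4 libraries as bars) and the same value without fl/fl 1 (blue) or without fl/fl 2 (orange). The 5 filled circles passed the threshold, and the blue values lie to the left of the circles.

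Across the 38 tested members, those with a lower level per kilobase in wt/wt tended to have the larger fold change (Spearman rho −0.65, or −0.60 with the length of all exons). This correlation is across genes in the same 4 libraries, and both measures contain the wt/wt values, so it is a description only.

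Related genes outside the members were read from lists chosen by pathway. Among 34 other fork subunits and factors, edgeR called 6 higher and 0 lower, against 2.69% and 3.16% of all tested genes. The 6 were Gmnn, Cdc7, Ticrr, Rnaseh2c, Chtf18 and Asf1b. The median of the list was 0.64, and 6 of its fitted changes were negative. Both fl/fl libraries lay above both wt/wt libraries in 64.7% of the list, against 28.1% of all tested genes, and below them in 3 genes. Ticrr, which helps Cdc45 to load, had 3 and 7 counts in wt/wt against 170 and 48 counts in fl/fl (adjusted p = 0.0241). Like Orc1 it passed the count filter only through fl/fl, so it could enter the test only if it was higher there, and the list holds 5 calls without it. Chtf18, part of an alternative clamp loader, was at 1.08 and 0.810 CPM in wt/wt against 12.1 and 5.76 CPM in fl/fl (3.24, SE 0.50, adjusted p = 0.0208). The number of calls in this list was 4 without fl/fl 1, 16 without fl/fl 2, and 0 without either wt/wt library.

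A further list held 23 tested enzymes that make nucleotides and folates from simple precursors. Of these edgeR called 0, with 3 at an unadjusted p under 0.05 against 22.5% of all tested genes, DESeq2 called 2, limma-voom called 0, and the median was 0.02. Dtymk, a kinase on the way to dTTP, was at 15.8 and 18.4 CPM in wt/wt against 44.3 and 23.9 CPM in fl/fl (0.99, SE 0.31, adjusted p = 0.115). Mthfd2 and Paics, enzymes of mitochondrial folate use and of purine synthesis, had log2 fold changes of 0.47 and 0.31.

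The 9 relatives of the members that also work outside S phase had a median of 0.08, and edgeR called 0 of them, with 1 at an unadjusted p under 0.05 against the same 22.5%. DESeq2 called 1, Samhd1, and limma-voom 0. Besides Rrm2b and Uhrf2, their log2 fold changes were 0.08 for Tk2 and 0.38 for Dguok (mitochondrial nucleoside kinases), 0.51 for Samhd1 (which degrades dNTPs), −0.21 for Lig3, 0.16 for Lig4, 0.21 for Polb and 0.05 for Polg. Counts of Lig1 were 1.11 and 1.06 times those of Lig3 in wt/wt against 5.62 and 2.46 times in fl/fl.

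Among 28 genes of the E2F, RB and G1/S network, 7 rose and 3 fell, against 2.69% and 3.16% of all tested genes. Ccnd1 and Ccnd2, cyclins that start the G1 programme, fell by 3.27 and 2.56 on the log2 scale, and the inhibitor Cdkn1a fell by 1.15. Ccnd3 rose by 1.29. The others that rose were Tfdp1, Ccne1, Ccna2, Cdkn2c, Cdkn2d and Cdc25a. Calls in this list numbered 8 without fl/fl 1, 14 without fl/fl 2 and 0 without either wt/wt library.

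Mitosis follows S phase, and of 25 mitotic genes 18 rose, against 2.69% of all tested genes, and the median was 2.99. One of these, Ttk, passed the count filter only through fl/fl. Among those with the smallest p were Birc5, Kif11, Nuf2 and Ccnb2 with log2 fold changes of 3.29, 3.53, 3.37 and 3.65. Summed levels were 167 and 123 CPM in the wt/wt libraries against 1220 and 440 CPM in the fl/fl libraries. Calls numbered 15 without fl/fl 1, 25 without fl/fl 2 and 0 without either wt/wt library. As in the members, fl/fl 1 was above fl/fl 2, by a median log2 ratio of 1.61.

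**Figure D5:**
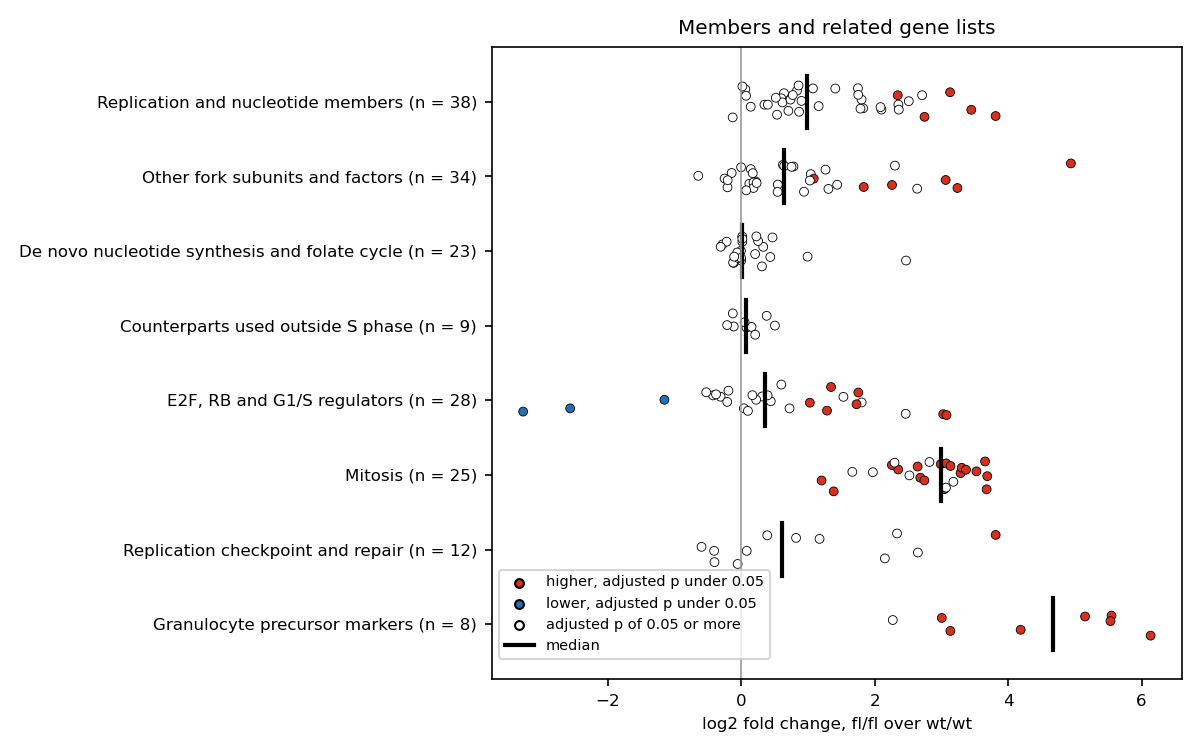
Log2 fold changes (fl/fl over wt/wt) of the 38 tested members, 6 related gene lists and 8 granulocyte precursor markers, 1 point a gene, with a black bar at each median. Medians run from 0.02 in the de novo list and 0.08 in the relatives used outside S phase, through 0.99 in the members, to 2.99 in mitosis and 4.67 in the precursor markers.

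Markers of granulocytes differed between the genotypes in the same direction as the members. Beside the counts of calls that follow, 2.69% of all tested genes were called higher and 3.16% lower. Of 8 markers of granulocyte precursors 7 rose, with a median log2 fold change of 4.67, and their summed level was 62.6 and 53.6 CPM in the wt/wt libraries against 1675 and 552 CPM in the fl/fl libraries. The myeloperoxidase gene Mpo, for example, was at 2.56 and 2.14 CPM in wt/wt against 267 and 62.7 CPM in fl/fl. Ctsg, among those that rose, passed the count filter through its fl/fl values. Between the fl/fl libraries these markers differed by a median log2 ratio of 1.86, also with fl/fl 1 the higher. Of 12 mature neutrophil markers 9 rose, with summed levels of 3245 and 4063 CPM in wt/wt against 37418 and 17261 CPM in fl/fl. Of 8 Kupffer cell markers 4 had enough counts to be tested, and 3 of these fell. The other tested marker had a log2 fold change of 0.997, was not called and overlapped between the groups. Summed levels of the list were 734 and 716 CPM in wt/wt against 147 and 51.5 CPM in fl/fl. The part of these shifts in the members' levels was not tested, and in bulk RNA more cells that transcribe a gene and more RNA of it per cell cannot be told apart.

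The 6 classical monocyte markers summed to 4817 and 4202 CPM in wt/wt against 12674 and 5851 CPM in fl/fl 1 and 2, so they too were highest in fl/fl 1. Of these markers 1 was called higher, where 2.69% of all tested genes were. In 4 of 6 both fl/fl libraries lay above both wt/wt libraries, against 28.1% of all tested genes, and in 1 both lay below. Their part in the members' levels was not tested. The 6 T cell markers summed to 0.809 to 1.88 CPM and the 5 B cell markers to 5.47 to 11.2 CPM. Epcam and Siglech had 0 counts in every library, where a count of 0 allows up to 3 counts. Other markers of their lists were counted. The 5 epithelial markers summed to 4.76, 6.23, 2.33 and 7.88 CPM. The 5 dendritic cell markers summed to 30.5, 38.4, 7.98 and 20.5 CPM. All 3 tested dendritic cell markers were lower in both fl/fl libraries than in both wt/wt libraries, where 3554 of all 13496 tested genes were. The 5 hepatocyte markers summed to 57.0, 35.7, 16.5 and 80.8 CPM. The erythroid markers summed to 21.1 and 20.6 CPM in wt/wt against 37.0 and 95.3 CPM in fl/fl 1 and 2. In all 4 tested erythroid markers both fl/fl libraries lay above both wt/wt libraries, against 28.1% of all tested genes, and 0 were called. Fl/fl 2 was the higher of the fl/fl pair in these markers, and fl/fl 1 in most members. The part of the dendritic cell, hepatocyte and erythroid markers in the members' levels was not tested.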

How the data were processed

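RNA-seq of 4 libraries of sorted liver myeloid cells was used, 2 of each genotype. The authors deposited raw counts per Ensembl gene (whole numbers, 55487 genes), per the file header and values. The build GRCm38 and the tools STAR 2.5.0, Trimmomatic 0.33 and FastQC 0.11.5 are named, per the submitters' processing notes. How reads were counted (tool, strand, annotation) is not given in the sources used here. Gene symbols, coordinates and lengths are those of GENCODE M21 (GRCm38), which held a symbol for 55227 identifiers and none for 260. RefSeq positions of promoter windows can differ from these.

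Genes were filtered with filterByExpr (minimum count 10, which left 13496), scaled by TMM and tested with the quasi-likelihood F test of edgeR 4.0.16 in R 4.3.3, two-sided and without covariates. P-values were adjusted by Benjamini-Hochberg over all tested genes, with a threshold of 0.05. Fold changes (prior count 0.125) have an SE obtained as their absolute size divided by the root of the F statistic, and levels per kilobase used the principal transcript or all exons. The biological coefficient of variation was 25.5%. The script was tested on simulated data. Depth sets the floor of 3 counts at 0.113 to 0.175 CPM, for counting error only.

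All 39 members were named, and from each related list up to 4 tested genes with the smallest p, all 9 relatives used outside S phase, and cell type markers by level. The other genes named as called, Dnmt1, Orc2 to Orc5, Gse1, Tmem258, Mpo and Xist were named after their values were seen. A few genes covered by the naming rule are not reported here. One listed symbol had no single identifier and was left out. The members and lists were chosen with earlier results of these data known. Alternatives were other scalings, filters and prior counts, DESeq2 1.42.0, limma-voom (limma 3.58.1), a replicate block, a test against a 1.5-fold change, and leaving out each library.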

Additional observations from a re-analysis of the deposited data

How the results depend on the processing

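Of the members' signs and calls, those under RLE size factors and a prior count of 5 were the same as reported for all 38 tested members. Members called higher numbered 5, where 363 of all 13496 tested genes were. In the next counts the genes called higher among all those tested stand in parentheses. Members numbered 10 with library size only (458 of 13496), 20 with no filter on low counts (1017 of 22696) and 16 with DESeq2 (784 of 13496). They numbered 2 with limma-voom (255 of 13496) and 2 in a test against a fold change of 1.5 (128 of 13496). With each library left out in turn they numbered from 0 to 24. DESeq2 with a library left out, an alternative chosen after seeing the data, called 8, 9 and 22 without wt/wt 1, wt/wt 2 and fl/fl 2. In such fits the lone library of a genotype is taken to vary as the complete pair does, so calls without a fl/fl library rest on the spread of the wt/wt pair. Over all genes 790 were called, against 2088 with no filter, 1618 with DESeq2, 319 against 1.5-fold, 0 to 1477 with a library left out, and 496 and 1401 by DESeq2 without wt/wt 1 and without fl/fl 2. The cause of these differences in number was not tested.

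Calls of the other fork list (6) became 13 with no filter, 12 with DESeq2, 3 with limma-voom, 2 against 1.5-fold and 0 to 16 with a library left out. Those of the de novo list (0) became 2 with no filter, 2 with DESeq2 and 0 to 2 with a library left out, and those of the relatives used outside S phase (0) became 1 with DESeq2. The E2F list (10) went to 2 against 1.5-fold and 0 to 14 with a library left out. The mitosis list (18) went to 6 with limma-voom, 7 against 1.5-fold and 0 to 25 with a library left out. The checkpoint list (1) went to 2 with library size only, 3 with no filter, 0 with a filter at a CPM of 5, 3 with DESeq2, 0 with limma-voom and 0 to 3 with a library left out.

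Median log2 fold changes with a library left out ran from 0.45 to 1.28 for all members, 0.62 to 2.14 for MCM, 0.33 to 2.01 for origin genes (0.43 with the filter at a CPM of 5), −0.10 to 1.08 for GINS, 1.64 to 3.10 for helicase activation, 0.13 to 1.27 for polymerases, 0.34 to 0.89 for RFC, 0.28 to 1.26 for the clamp group, 0.47 to 1.04 for RPA and 1.61 to 2.82 for nucleotide synthesis. Fold changes of uncalled members that changed sign ran, with a library left out, from −0.040 to 1.09 for Mcm3, −0.68 to 0.54 for Cdt1, −0.47 to 1.21 for Gins1, −0.14 to 1.11 for Gins2, −0.057 to 0.65 for Gins4, −0.085 to 0.33 for Pola2, −0.56 to 0.19 for Pold2, −0.83 to 0.62 for Pole2, −0.040 to 0.72 for Rfc3 and −0.20 to 0.23 for Pcna. With limma-voom Cdt1 and Pole2 were at −0.0491 and −0.0492, and Pcna was at −0.0088 with upper quartile scaling and −0.0032 with the filter at a CPM of 5.

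Over all tested genes, same-numbered libraries did not deviate together (correlation 0.0215). With 2 libraries per genotype this cannot decide whether the numbers mark a shared litter, batch or day, which the labels do not state. With the replicate block 16 members, 1215 genes in all, 10 of the other fork list, 1 of the de novo list and 3 of the checkpoint list were called, and Cdt1 and Pole2 were at −0.0463 and −0.0526. Low counts limit Orc1, Pole and Fen1 most.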
